A study of Arabidopsis thaliana with 48 samples.

Results

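The cytochrome P450 family is described here in the guard cells and leaves of Arabidopsis thaliana. It is represented by 23 P450 genes out of the 13356 genes that the annotation tied to a microarray probe set of their own. Members were all genes with a systematic P450 symbol, the letters CYP followed by a family number and a subfamily letter, whose probe set the annotation tied to 1 gene. The choice used names and not measured values. The reference table of gene names holds 236 such symbols, and the other P450 genes were not analysed here. The CYP71B subfamily made up 19 of the 23 members, out of 36 CYP71B genes in the reference table. The CYP51, CYP78, CYP79 and CYP84 families had 1 member each, namely CYP51G2, CYP78A9, CYP79A2 and CYP84A4. A comparison by family number is therefore a comparison of CYP71B with 4 single genes.

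Cytochrome P450 enzymes are haem proteins that insert an oxygen atom into a substrate, usually while anchored in the membrane of the endoplasmic reticulum and fed with electrons by a reductase. Plants carry a large family of them, and its members build and break down hormones, sterols, cuticle lipids, lignin precursors, glucosinolates and other defence compounds. The CYP71 clan to which CYP71B belongs has spread in plants by tandem duplication, so that many of its genes lie side by side, and for most CYP71B enzymes the substrate is not known.

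The study set guard cells against whole leaves of 5-week-old plants of the Columbia ecotype, with 3 independent biological replicates in each of 16 groups and 48 arrays in all. The genotypes were the agb1-2 gpa1-4 double mutant, the gpa1-4 mutant, the agb1-2 mutant and the wild type (WT), in which AGB1 encodes the beta subunit and GPA1 the alpha subunit of the heterotrimeric G protein. Each genotype received 50 µM abscisic acid (ABA), the hormone that closes stomata under drought, or its solvent ethanol (EtOH) for 3 h. A guard cell sample came from 300 leaves of 60 to 70 plants, whereas a leaf sample came from 10 leaves of 3 to 4 plants and held all leaf cell types, guard cells included. By one label the leaves were incubated in ABA and by another the isolated guard cells were, and samples described as EtOH are elsewhere labelled untreated. The probe sets of GPA1 and AGB1 were not identified in the annotation used, so the check of the mutated genes was not analysed here.

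All values are the authors' RMA values, a log2 measure of probe set brightness, so a difference of 1 is a 2-fold change. They ran from 2.42 to 14.50 over all 22810 probe sets, controls included, and the array medians over these lay between 5.06 and 5.39. Values of different probe sets are not comparable as levels, so each gene is compared only with itself. A difference is said to be called when its Benjamini-Hochberg adjusted p from limma's moderated test is under 0.05. The adjustment ran over the 22746 probe sets that are not controls, and shares of all probe sets refer to these. Errors are SDs over 3 arrays for levels and moderated SEs for differences. In these bulk samples, fewer cells of a type and less RNA per cell cannot be told apart. Of the marker lists, the guard cell regulator FMA was 5.05 higher in WT guard cells than in WT leaves under EtOH (limma adjusted p = 5.16e-17), whereas the other guard cell marker measured, MUTE, which acts in precursor cells, was not called at -0.24. All 4 mesophyll markers measured were lower in guard cells, by -1.78 (RCA) to -3.38 (PRK), as was the phloem sugar transporter SWEET11 at -6.32.

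The first comparison asked which P450 genes differ between guard cells and leaves of WT plants under EtOH. Of the 23 members 10 were called, 2 higher and 8 lower in guard cells. Across all probe sets 42.2% were called in this comparison, 20% higher and 22.2% lower. The members' share of 43.5% is near that background. Their median difference was -0.07, against 0.04 for all probe sets. Within CYP71B 9 of 19 genes were called, and of the 4 other members 1 was called, CYP78A9. The called log2 differences ranged from -4.42 in CYP71B26 to 2.72 in CYP71B5.

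CYP71B5 (AT3G53280) was the member with the largest rise in guard cells. Its 3 values were 8.90, 8.93 and 8.82 in WT guard cells under EtOH, against 6.02, 6.47 and 6.01 in WT leaves. The arrays of each tissue lay close together and far from those of the other. The difference was 2.72 ± 0.22 (SE), with a limma adjusted p of 1.06e-12. Over the 4 genotypes and both treatments, all 24 guard cell arrays (7.07 to 8.93) lay above all 24 leaf arrays (5.76 to 6.87). A full separation in that direction was seen in 6.68% of all probe sets and in 1 of the 23 members.

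CYP71B6 (AT2G24180), which acts on indole-3-acetonitrile in the synthesis of indole-3-carboxylic acid derivatives for defence, was the other member that rose. It had 9.53, 9.73 and 9.66 in WT guard cells under EtOH, against 8.61, 8.86 and 7.88 in WT leaves. The groups did not overlap, and the leaf array of replicate 3 was the lowest. The difference was 1.19 ± 0.22 (limma adjusted p = 3.40e-05). Over all 48 arrays the tissues overlapped for this gene, at 8.98 to 10.03 in guard cells and 7.88 to 9.53 in leaves.

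CYP71B26 (AT3G26290) showed the largest fall. It measured 4.04, 3.73 and 4.29 in WT guard cells under EtOH, against 8.96, 8.66 and 7.70 in WT leaves, so that no guard cell array came near a leaf array. The difference was -4.42 ± 0.36 (limma adjusted p = 1.58e-12). Its values in WT guard cells under EtOH lay in the range of the dimmest members described further on, whose signal was not set against background, so no fold is given. CYP71B23 (AT3G26210) had 5.15, 5.75 and 4.36 in WT guard cells and 8.44, 9.84 and 7.72 in WT leaves under EtOH. Its replicates were the most scattered of any member, with a mean SD within groups of 0.58, yet its groups stayed apart, with a difference of -3.58 ± 0.51 (limma adjusted p = 3.74e-07). CYP71B34 (AT3G26300) measured 3.50, 3.74 and 3.56 in WT guard cells, against 6.19, 6.54 and 6.32 in WT leaves. It fell by 2.75 (limma adjusted p = 4.52e-09). The WT guard cell values of CYP71B34 under EtOH also lay in the range of the dimmest members.

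Of the 5 remaining calls, CYP71B29 and CYP71B24 fell by 1.58 and 1.57 and CYP71B28 fell by 1.37. Under EtOH the WT guard cell arrays of CYP71B24 (3.13 to 3.68) and CYP71B36 (3.18 to 3.22) lay in that dim range too. CYP78A9, whose product promotes the growth of fruits, seeds and other organs, had 4.87, 4.90 and 4.89 in WT guard cells and 5.57, 7.33 and 7.16 in WT leaves under EtOH. Its guard cell arrays were nearly identical, while leaf replicate 1 lay far below the other leaf arrays. The difference was -1.80 ± 0.41 (limma adjusted p = 3.73e-04). CYP71B36 fell by 0.99 (limma adjusted p = 2.43e-04), but with only the 6 arrays compared in the fit its adjusted p was 0.0539. The mesophyll markers moved with these falls: their summed log2 level was 11.99 to 13.00 in the WT guard cell arrays and 14.34 to 14.69 in the WT leaf arrays under EtOH. The part of mesophyll RNA in the members' falls was not tested.

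Over all genotypes and treatments, 3 members had all 24 guard cell arrays below all 24 leaf arrays, against 7.09% of all probe sets. CYP71B26 spanned 3.73 to 5.08 in guard cells and 7.51 to 10.40 in leaves. CYP71B23 spanned 3.50 to 6.35 in guard cells and 7.02 to 10.10 in leaves. CYP71B24 spanned 3.03 to 4.00 in guard cells and 4.42 to 5.96 in leaves. Its gap was the smallest of the 3, and its highest guard cell value still lay under its lowest leaf value.

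**Figure D1:**
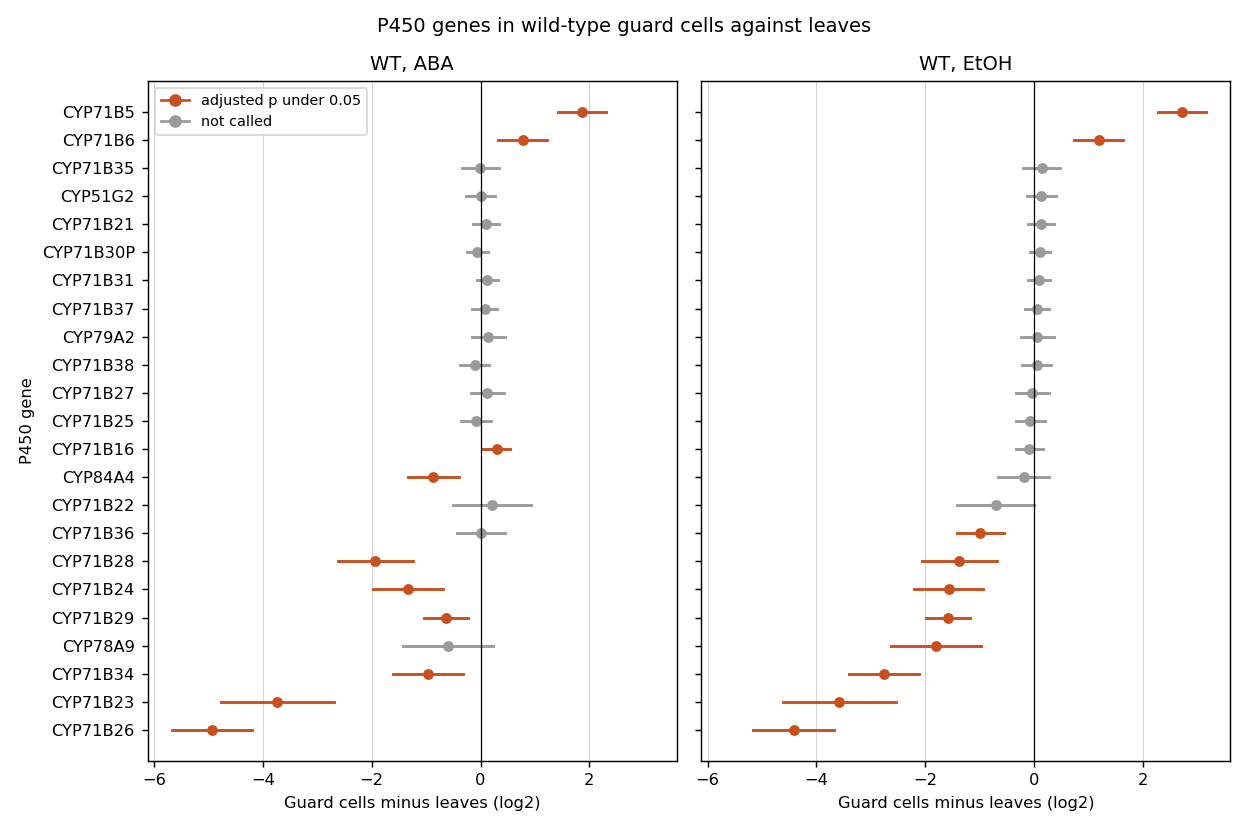
Guard cells minus leaves (log2, x axis) for each of the 23 P450 genes (y axis) in WT plants under ABA (left) and EtOH (right), as points with 95% confidence intervals from the fit. Orange marks called differences: CYP71B26, CYP71B23 and CYP71B34 lie far left of 0 under EtOH and CYP71B5 far right, and each panel has 13 grey members that were not called.

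Under ABA the same tissue comparison in WT called 10 members, against 49.3% of all probe sets. Of these, 3 were higher and 7 lower in guard cells. CYP71B26 differed by -4.94 and CYP71B23 by -3.73, and CYP71B5 by 1.86 and CYP71B6 by 0.77. CYP71B34 was lower by only -0.96 ± 0.32 (limma adjusted p = 0.0113), with 4.47, 3.97 and 3.94 in guard cells under ABA and 5.29, 5.11 and 4.87 in leaves under ABA. CYP84A4, a relative of ferulate 5-hydroxylase that acts in the synthesis of arabidopyrones, was called under ABA at -0.87 ± 0.23 (limma adjusted p = 0.00186) and was not called under EtOH at -0.19. CYP78A9 at -0.60 and CYP71B36 at 0.01 were not called under ABA. CYP71B16 was called at 0.29 (limma adjusted p = 0.0463), with overlapping groups and with the call lost in 3 of the 6 fits that left out 1 array, where the difference was as small as 0.15.

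Tandem neighbours were not all called alike. Of the 19 CYP71B genes 16 lie in 4 blocks of neighbours with at most 2 other genes between them. In the block of CYP71B25, CYP71B26, CYP71B34, CYP71B35, CYP71B36 and CYP71B37, under EtOH 3 genes fell in WT guard cells (CYP71B26, CYP71B34 and CYP71B36) and the other 3 were not called, with CYP71B35 at 0.14. In the block of CYP71B21 to CYP71B24, CYP71B23 and CYP71B24 fell and CYP71B21 (0.13) and CYP71B22 (-0.70) were not called. CYP71B28 and CYP71B29 fell beside CYP71B27, which the reference table gives as a transcribed pseudogene and which was at -0.03. CYP71B5 rose beside CYP71B30P and CYP71B31, which were at 0.11 and 0.08. CYP71B31 is known for its part in linalool metabolism in flowers. Whether probe sets of these related genes pick up RNA of their neighbours was not tested. Of the neighbours not called, CYP71B21, CYP71B25, CYP71B27, CYP71B30P, CYP71B31 and CYP71B37 had no array over 4.5. Whether a fall could be seen in them was not tested, and the lack of a call does not show a different pattern.

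The dimmest members were picked by their values, so their narrow range and few calls are partly set by that choice. For 10 members no array exceeded 4.5, a cut chosen after the values were seen: their arrays lay between 2.90 and 4.40, and their 16 group means spanned 0.19 to 0.44. Of these 10, 9 were not called in any of the 25 comparisons, CYP71B16 being the exception. They include CYP79A2, which makes phenylacetaldoxime for benzylglucosinolate, at 3.44 to 3.81 over the group means. They also include CYP51G2, given as a transcribed pseudogene related to the sterol 14-alpha-demethylase CYP51G1, at 3.75 to 3.94. No detection calls were used here, so whether these signals exceed background was not tested. Over all 23 members, 13 were called in at least 1 comparison, namely 11 of CYP71B together with CYP78A9 and CYP84A4, while 71.1% of all probe sets were.

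Lists of other genes were written for pathways in which P450 enzymes act, and the annotation used tied few of them to a probe set of their own. The lists of carotenoid P450s and of cutin, suberin, wax and fatty acid P450s had 0 measured genes each. From the glucosinolate synthesis list, 3 of 25 genes had a probe set of their own, and all 3 were called lower in WT guard cells under EtOH. They were the chain-elongation aminotransferase BCAT4 at -2.67, the glucosyltransferase UGT74B1 at -2.37 and GSTU20 at -2.09. Their WT leaf arrays under EtOH were scattered, with SDs of 2.29 (BCAT4), 0.90 (UGT74B1) and 2.27 (GSTU20). Under ABA 2 of the 3 were called lower in WT guard cells. From the phenylpropanoid list, 3 of 21 were measured: CCR2, a cinnamoyl-CoA reductase, was higher at 1.96 (limma adjusted p = 0.0356), with overlapping groups, and DFR at 0.02 and HCT at -0.65 were not called. Lycopene cyclase (LYC), the 1 carotenoid gene measured of 8, was lower at -1.49, and FATB, the 1 cutin and wax gene measured of 19, was not called at 0.05. The annotation used tied 8730 of the 22746 probe sets to no gene. It tied no probe set of their own to the P450 genes of hormone metabolism listed for this work. Among these are the CYP707A enzymes of ABA breakdown, and whether the array measures them was not checked.

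The next comparison asked how ABA changes P450 genes in guard cells, and in WT only 1 of 23 members was called. Among all probe sets 20.2% were called there, 8.55% higher and 11.6% lower, so the members' share of 4.35% was below the background. Of the 23 members 10 had no array over 4.5, and the part of dim signal in that low share was not tested. The call was CYP71B5, which had 8.35, 8.12 and 7.58 in WT guard cells with ABA, against 8.90, 8.93 and 8.82 with EtOH. All ABA arrays lay below all EtOH arrays, and ABA replicate 3 was the lowest. It fell by 0.87 (SE 0.25, limma adjusted p = 0.0166). Without ABA replicate 3 the adjusted p was 0.107 and without EtOH replicate 2 it was 0.0520, at differences of -0.65 and -0.84. CYP71B34 was higher with ABA in every array but not called, at 0.53 (limma adjusted p = 0.114). Of the 2 guard cell markers matched by symbol FMA fell by 2.44 in the same comparison and MUTE was not called at 0.12. Their summed level was 8.28 to 8.85 with ABA and 10.33 to 11.58 with EtOH. The mean of that sum was 8.54 with ABA and 10.94 with EtOH, close to FMA alone at 8.50 and 10.93. Of the 4 matched mesophyll markers LHCB4.2 fell by 1.56 (limma adjusted p = 2.28e-05) and the other 3 were not called at -1.27 (PRK), -0.56 (RCA) and -0.26 (SBPASE), with a summed level of 10.99 to 12.12 with ABA and 11.99 to 13.00 with EtOH. The part of such marker shifts in the fall of CYP71B5 was not tested.

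In guard cells of the mutants ABA also led to 1 call per genotype. The backgrounds were 16.2% of all probe sets in the double mutant, 20.1% in gpa1 and 15.7% in agb1. CYP71B35 (AT3G26310) was called in the double mutant, where it had 4.54, 4.89 and 4.92 with ABA and 4.07, 4.28 and 4.31 with EtOH. It rose by 0.56 ± 0.14 (limma adjusted p = 0.00679). It was also called in agb1, with 4.39, 4.52 and 4.52 under ABA and 4.07, 3.71 and 3.93 under EtOH, a difference of 0.57 ± 0.14 (limma adjusted p = 0.00589). The groups did not overlap in either genotype, and both calls held in each of the 6 fits that left out 1 array. The EtOH arrays of CYP71B35 in both genotypes lay in the range of the dimmest members, whose signal was not set against background. In gpa1 the difference was 0.24 (limma adjusted p = 0.259), and in WT it was -0.15 (limma adjusted p = 0.519), with 4.07, 4.18 and 4.25 under ABA and 4.17, 4.26 and 4.51 under EtOH. The F test of whether the ABA response differs among genotypes in guard cells gave CYP71B35 an unadjusted p of 0.00408 and an adjusted p of 1. A genotype difference in its response was therefore not called, and 0% of all probe sets were called in that test.

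In gpa1 guard cells the call was CYP71B34, which had 5.10, 4.42 and 3.85 with ABA and 3.76, 3.88 and 3.77 with EtOH. The groups overlapped, and ABA replicate 1 was the highest array. The difference was 0.65 ± 0.23 (limma adjusted p = 0.0486), and the call was lost in 5 of the 6 fits that left out 1 array. Without ABA replicate 1 it was 0.33 (adjusted p = 0.320).

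Same-numbered guard cell arrays of a genotype deviated together, so the numbers can be used as pairs. With 1 replicate block shared by all genotypes, the call of CYP71B34 in gpa1 was lost (limma adjusted p = 0.0525). With a replicate block within each genotype, added after the data were seen, more members were called in guard cells: 3 in the double mutant, 2 in gpa1, 2 in agb1 and 3 in WT. In that fit more of all probe sets were called too, 24.2% in the double mutant, 28.4% in gpa1, 23.6% in agb1 and 28.6% in WT, and the members' shares stayed below these. CYP71B5 then fell by 0.61 in the double mutant (limma adjusted p = 0.0283), by 0.58 in agb1 (0.0351) and by 0.87 in WT (0.00307). In gpa1 it was at -0.42 and not called. CYP71B23 fell by 0.70 in gpa1 (limma adjusted p = 0.0430) and by 0.84 in WT (0.0185) in this blocked fit. CYP71B28 fell by 0.49 in WT (limma adjusted p = 0.0229) and CYP71B22 fell by 0.38 in the double mutant (0.0457).

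**Figure D2:**
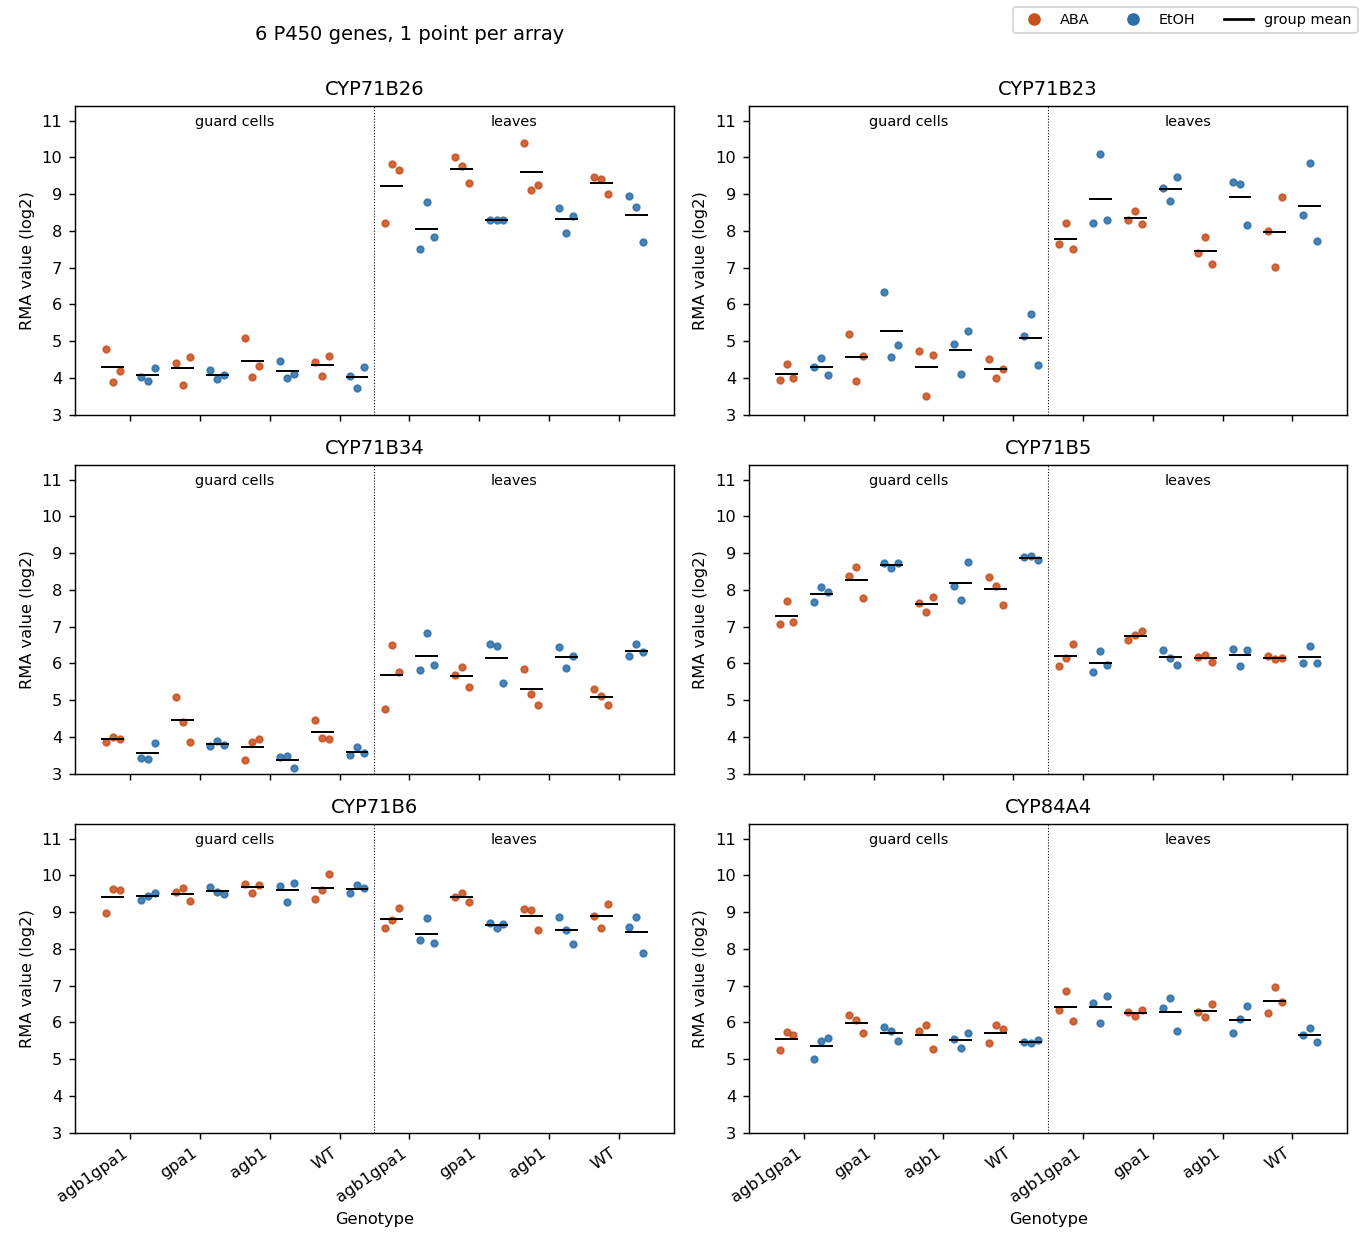
RMA values (log2, y axis) of 6 P450 genes, with 1 point per array and a bar at each group mean, by genotype (x axis) in guard cells (left of the dotted line) and leaves (right), with ABA in orange and EtOH in blue. CYP71B26 and CYP71B23 stay low in all guard cell groups, CYP71B5 stays high there, and in WT leaves the ABA points of CYP71B34 lie below and those of CYP84A4 above the EtOH points.

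In WT leaves ABA changed 5 of the 23 members, 1 higher and 4 lower. All probe sets were called at 38.7% in this comparison, 16.9% higher and 21.8% lower, so the members' share of 21.7% was below the background. As in guard cells, the part of the 10 members with no array over 4.5 in that share was not tested. CYP84A4 (AT5G04330) was the member that rose. It had 6.26, 6.95 and 6.57 in WT leaves with ABA, against 5.67, 5.86 and 5.46 with EtOH. Every ABA array exceeded every EtOH array, and the difference was 0.93 ± 0.26 (limma adjusted p = 0.00729). In the phenylpropanoid list CCR2 rose by 3.09 and DFR by 0.37 in the same leaves, and HCT at 0.12 was not called.

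CYP71B34 measured 5.29, 5.11 and 4.87 in WT leaves with ABA and 6.19, 6.54 and 6.32 with EtOH. It fell by 1.26 (SE 0.38, limma adjusted p = 0.0124). CYP71B29 (AT1G13100) measured 5.0, 5.06 and 5.32 with ABA and 6.21, 6.23 and 5.79 with EtOH. It fell by 0.95 (SE 0.19, limma adjusted p = 8.85e-04). In both genes the groups were apart, and neither call was lost in any of the 6 fits that left out 1 array.

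The other 2 falls in WT leaves were less stable. CYP71B36 had 3.40, 3.45 and 3.18 with ABA and 4.01, 4.92 and 3.62 with EtOH, a difference of -0.84 ± 0.28 (limma adjusted p = 0.0208). EtOH replicate 2 stood well above the other arrays. The difference was -0.48 without it (limma adjusted p = 0.154), and without ABA replicate 3 the adjusted p was 0.0716. CYP78A9 had 6.09, 4.60 and 5.82 with ABA and 5.57, 7.33 and 7.16 with EtOH. Its groups overlapped, through EtOH replicate 1, and the difference was -1.19 ± 0.41 (limma adjusted p = 0.0286). The call was lost without ABA replicate 2 (limma adjusted p = 0.177), EtOH replicate 2 (0.144) or EtOH replicate 3 (0.121), at differences of -0.74, -0.87 and -0.95.

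The scale of the arrays bears on this comparison. When each array was centred on its median, the median difference of all probe sets between ABA and EtOH in WT leaves became 0.30 instead of 0.05, and 12 members were called, 10 higher and 2 lower, while 57.4% of all probe sets were called in the centred fit. The 9 members added had centred differences of 0.34 to 1.11, CYP71B26 among them. The calls of CYP71B36 and CYP78A9 were lost. For guard cells against leaves under EtOH the same centring gave a median of 0.25 instead of 0.04 and 5 members higher and 8 lower, against 53.7% of all probe sets called. The higher counts of members thus went with higher backgrounds. Quantile normalization gave 2 higher and 8 lower for the tissues and 1 higher and 3 lower for ABA in WT leaves, with backgrounds of 42% and 36.9%. Centring moved the median of all probe sets to -0.19 for the difference of ABA responses described further on, to 0.11 and 0.12 for ABA in leaves of the double mutant and agb1, and to 0.17 and 0.12 for the double mutant and gpa1 against WT in leaves under EtOH. All 4 mesophyll markers were also called lower with ABA in WT leaves, between -1.01 (LHCB4.2) and -2.19 (PRK), as were FMA at -1.12 and SWEET11 at -1.24. Their summed mesophyll level was 12.39 to 13.29 with ABA and 14.34 to 14.69 with EtOH, and the part of this shift in the members' calls was not tested.

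Mutant leaves gave few ABA calls in the fit over the 24 leaf arrays. A genotype difference in the ABA response was called for 0% of all probe sets in leaves. In leaves of the double mutant 0 of 23 members were called, against 10.2% of all probe sets. In gpa1 leaves 2 were called against 10.3%, and in agb1 leaves 0 were called against 14.5%. In gpa1 leaves the groups of 3 arrays did not overlap for 10 of the 23 members, against 32.3% of all probe sets. More members were called there with only the arrays compared in the fit, as given further on. At limma's unadjusted p under 0.05 the counts were 3 in the double mutant, 5 in gpa1 and 5 in agb1. The share of all probe sets at that threshold is not given here, so these counts have no background. CYP71B26 had the highest ABA difference of the members in each mutant. In the double mutant it had 8.22, 9.82 and 9.66 with ABA and 7.51, 8.79 and 7.83 with EtOH, overlapping groups that differed by 1.19 (limma adjusted p = 0.0888). In gpa1 it had 10.02, 9.75 and 9.30 with ABA and 8.30, 8.29 and 8.31 with EtOH, and it rose by 1.40 ± 0.43 (limma adjusted p = 0.0426). In agb1 it had 10.40, 9.12 and 9.25 with ABA and 8.63, 7.94 and 8.40 with EtOH, groups that did not overlap and differed by 1.27 (limma adjusted p = 0.0529). In WT the ABA arrays of 9.48, 9.40 and 9.01 also lay above the EtOH arrays of 8.96, 8.66 and 7.70, at 0.85 (limma adjusted p = 0.123). The gpa1 call was lost in each of the 6 fits that left out 1 array, with adjusted p between 0.0582 and 0.156 and differences of 1.23 to 1.59.

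CYP71B5 was the other call in gpa1 leaves. It had 6.63, 6.77 and 6.87 with ABA and 6.38, 6.14 and 5.97 with EtOH. The arrays did not overlap, and the difference was 0.59 ± 0.18 (limma adjusted p = 0.0375). The call was lost in 5 of the 6 fits that left out 1 array, with adjusted p up to 0.159. In the double mutant, agb1 and WT leaves the differences of CYP71B5 were 0.18, -0.09 and -0.01.

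In agb1 leaves the replicate numbers paired the arrays, and with a replicate block within genotype 3 members were called there, against 16.7% of all probe sets in that fit. CYP71B26 rose by 1.27 (limma adjusted p = 0.00489), CYP71B34 fell by 0.87 (0.0167) and CYP71B36 fell by 0.82 (0.0359) in that fit. In the fit without a block CYP71B34 and CYP71B36 had adjusted p of 0.140 and 0.0543.

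The sign of the ABA difference was the same in all 4 genotypes for 9 of the 23 members in leaves, 3 positive and 6 negative, and for 55.3% of all probe sets. The positive ones were CYP71B26 (0.85 to 1.40), CYP71B28 (0.07 to 1.15) and CYP71B6 (0.38 to 0.75). The negative ones were CYP71B34 (-1.26 to -0.50), CYP71B36 (-0.84 to -0.58), CYP71B29 (-0.95 to -0.45), CYP71B23 (-1.48 to -0.68), CYP71B22 (-0.94 to -0.54) and CYP78A9 (-1.19 to -0.60). CYP71B22 was scattered under EtOH, with leaf arrays of 4.21 to 6.72, and stood at 4.18 to 4.89 in all 12 leaf arrays with ABA. In guard cells 7 of the 23 members and 59.5% of all probe sets had the same sign in all 4 genotypes, the members with 4 positive (CYP71B26, CYP71B34, CYP71B38 and CYP84A4) and 3 negative (CYP71B5, CYP71B23 and CYP71B28). The range was 0.36 to 0.65 for CYP71B34 and -0.87 to -0.42 for CYP71B5. Most of these differences were not called.

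**Figure D3:**
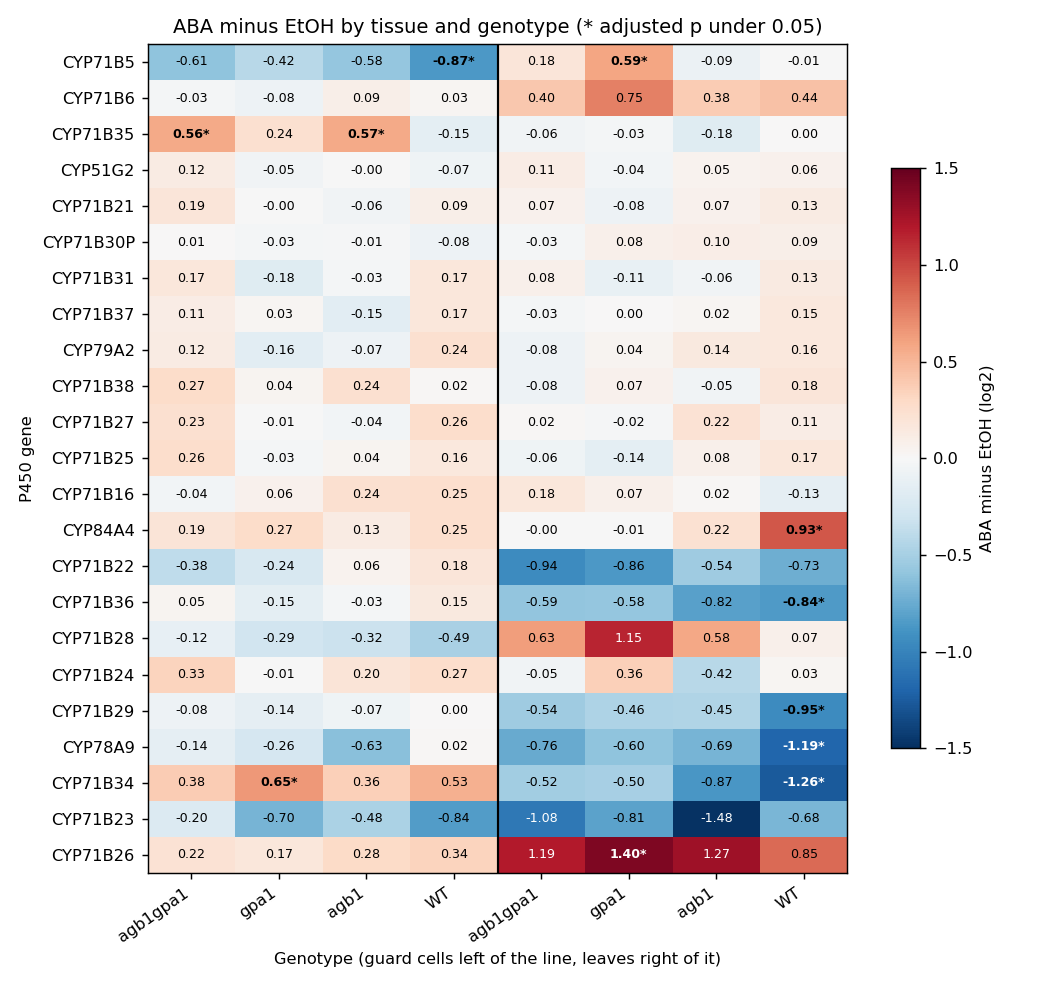
ABA minus EtOH (log2, colour and number) for 23 P450 genes (rows) in 4 genotypes of guard cells (left of the line) and leaves (right), with called differences starred. CYP71B34 is positive in each guard cell column and negative in each leaf column, CYP71B26 is highest in the 3 mutant leaf columns, and CYP71B35 is called in guard cells of the double mutant and agb1.

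Whether ABA acts differently on P450 genes in guard cells and in leaves was tested as the difference of the 2 responses in WT. It called 4 of the 23 members, against 23% of all probe sets, 12.3% higher and 10.7% lower. CYP71B34 differed most, with an ABA difference of 0.53 in guard cells and of -1.26 in leaves. The responses differed by 1.79 ± 0.45 (limma adjusted p = 0.00354), and the call held in each of the 12 fits that left out 1 array. CYP71B36 had 0.15 in guard cells and -0.84 in leaves, a difference of 0.99 ± 0.30 (limma adjusted p = 0.0159). Without EtOH leaf replicate 2 it was 0.63 (adjusted p = 0.0947). In WT guard cells under EtOH, CYP71B34 (3.50 to 3.74) and CYP71B36 (3.18 to 3.22) lay in the range of the dimmest members. The signal of those members was not set against background, and whether a fall with ABA could be seen there was not tested. CYP71B29 had 0.00 in guard cells and -0.95 in leaves, a difference of 0.95 ± 0.28 (limma adjusted p = 0.0125). The call was lost in 2 of the 12 fits that left out 1 array. These omitted replicate 3 of the ABA guard cells (limma adjusted p = 0.0534) or replicate 2 of the EtOH guard cells (limma adjusted p = 0.0518). It was also lost with only the arrays of the compared groups (limma adjusted p = 0.0510) and under quantile normalization (limma adjusted p = 0.0874). CYP71B5 had -0.87 in guard cells and -0.01 in leaves, a difference of -0.86 ± 0.31 (limma adjusted p = 0.0432). Its call was lost in 10 of the 12 fits that left out 1 array, with adjusted p up to 0.150. For CYP78A9 and CYP84A4, called in leaves only, the difference between tissues was not called (limma adjusted p = 0.134 and 0.136).

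**Figure D4:**
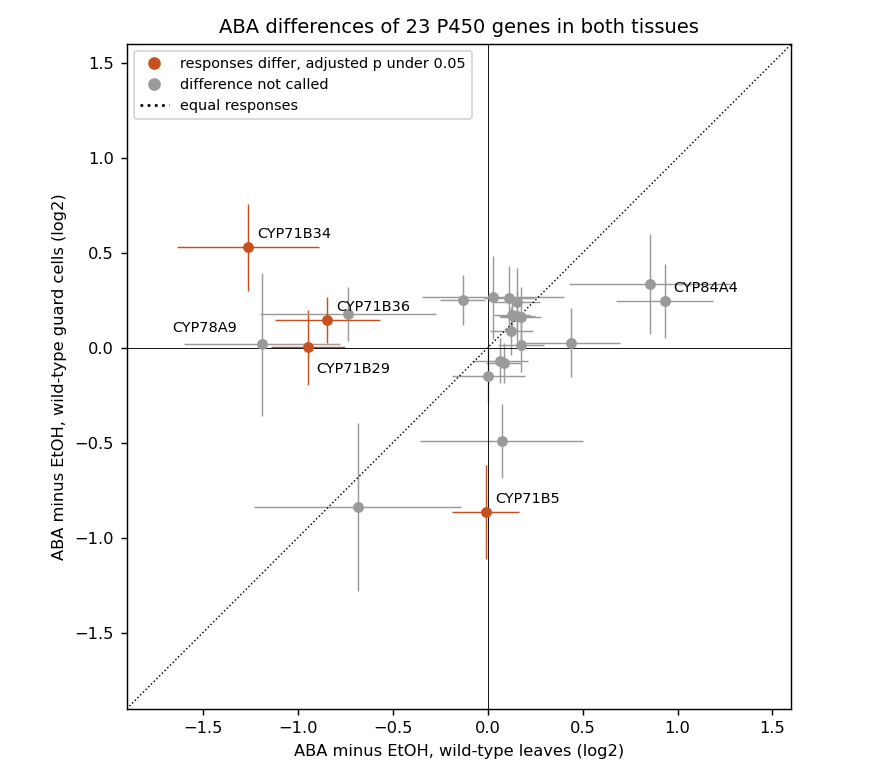
ABA minus EtOH (log2) of the 23 P450 genes in WT guard cells (y axis) against WT leaves (x axis), with bars of 1 SE and a dotted line where both responses are equal. The 4 orange genes have responses that differ between the tissues: CYP71B34, CYP71B36 and CYP71B29 lie left of the line and CYP71B5 lies below it.

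The last set of comparisons asked whether loss of the G protein subunits changes P450 genes. None of the 276 differences between a mutant and WT was called by limma, over 23 members and 12 comparisons. Of these, 19 had an unadjusted p under 0.05, and the share of all probe sets at that threshold is not given here. The smallest adjusted p was 0.0839. The background was also low. In guard cells under ABA it was 0.0132% of all probe sets for the double mutant, 0.00879% for gpa1 and 0.00879% for agb1. In guard cells under EtOH it was 0.0484%, 0.0176% and 0.0308% for the same genotypes. In leaves under ABA it was 0.0176%, 0.611% and 0.0352%, and in leaves under EtOH it was 6.13%, 0.101% and 0%. These comparisons share the WT arrays with each other and with those of tissue and ABA.

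The largest single difference between a mutant and WT was that of CYP71B5 in double mutant guard cells under EtOH. It had 7.67, 8.09 and 7.95 there, against 8.90, 8.93 and 8.82 in WT guard cells, and the groups did not overlap. The difference was -0.98 ± 0.25 (limma adjusted p = 0.244), and in agb1 it was -0.68. CYP71B35 in guard cells under ABA was higher than in WT by 0.62 in the double mutant, 0.46 in gpa1 and 0.31 in agb1, with limma adjusted p of 0.380, 0.463 and 0.902.

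In leaves under EtOH, where the double mutant had the largest background, CYP84A4 had 6.54, 5.98 and 6.72 in the double mutant and 5.67, 5.86 and 5.46 in WT, at 0.75 ± 0.26 (limma adjusted p = 0.0839). CYP71B29 had 5.40, 5.63 and 5.50 in the double mutant and 6.21, 6.23 and 5.79 in WT, at -0.57 ± 0.19 (limma adjusted p = 0.0854). Both genes sat apart from WT in every array without passing the test. The ABA response of CYP84A4 in leaves was 0.00 in the double mutant, -0.01 in gpa1 and 0.22 in agb1, against 0.93 in WT. The F test for a genotype difference in that response gave an unadjusted p of 0.0562 and an adjusted p of 0.468. In the same test 0 members in leaves and 2 in guard cells had an unadjusted p under 0.05, without the share of all probe sets beside it. None was called after adjustment, nor was any probe set in leaves (0%).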

How the data were processed

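Gene expression was measured on 48 1-colour arrays. The deposited log2 values, 1 for each probe set and array, were made by the authors with RMA and affy, per the submitters' processing notes; versions, and whether all arrays were normalized together, are not given in the sources used here. Of 22810 probe sets, 64 controls were left out. A table of gene names tied 13513 of the other 22746 to 1 gene, 503 to several and 8730 to none. Each member had 1 such probe set. The members, gene lists and tests were chosen with earlier results of these data known.

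Differences were tested in 25 comparisons by two-sided moderated tests (limma 3.58.1, R 4.3.3), with 1 mean fitted per group. Comparisons within a tissue used its 24 arrays and those between tissues all 48. The procedure was tested on simulated data. The number of arrays limits the precision. Genes were named where called without overlap between groups, up to 10 in each direction in the WT comparisons of tissue under EtOH and of ABA, and up to 5 in others. Members outside that rule were named after their values were seen. Alternatives were each array centred on its median, quantile normalization, only the arrays compared, a filter on dim probe sets, a replicate block, and each array left out in turn.

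Replicate numbers were taken to pair arrays where the deviations of all 3 same-numbered pairs from their group means correlated above 0.1 over probe sets. That was so in 5 of the 22 comparisons of 2 groups, namely ABA against EtOH in guard cells of all 4 genotypes and in agb1 leaves, and in none of the others. Correlations ran from -0.42 to 0.66.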

Additional observations from a re-analysis of the deposited data

Results flagged for a closer look

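In WT, 4 members had ABA responses that differed between guard cells and leaves by limma's test of the difference itself. The difference (guard cell response minus leaf response, log2) was 1.79 for CYP71B34, 0.99 for CYP71B36, 0.95 for CYP71B29 and -0.86 for CYP71B5. The call of CYP71B34 held under each alternative tried. With only the 12 arrays compared, the adjusted p of CYP71B36 was 0.0835 and that of CYP71B29 0.0510. Quantile normalization gave CYP71B29 a difference of 0.69 (adjusted p = 0.0874). CYP71B36 and CYP71B29 lost their calls in 1 and 2 of the 12 fits that left out 1 array, and CYP71B5 in 10. In WT guard cells under EtOH, CYP71B34 and CYP71B36 lay in the range of the dimmest members. Whether a fall with ABA could be seen there was not tested.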

How the results depend on the processing

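Counts of called members moved by over 1.5 times as follows. With only the arrays compared in the fit, ABA called 0 members in gpa1 guard cells, 3 in WT leaves and 8 in gpa1 leaves, the difference of responses called 2, and gpa1 against WT in leaves under ABA called 1. Centring on array medians gave 12 in WT leaves, 1 in agb1 leaves and 1 in double mutant leaves. The shares of all probe sets called there were 57.4%, 14.3% and 9.71%. Quantile normalization gave 0 in gpa1 guard cells, 2 in double mutant guard cells and 1 in agb1 leaves. With it 19.2%, 15.2% and 14.2% of all probe sets were called in these comparisons. Keeping probe sets with a group mean of at least 6 left 2 members in the guard cell fit and 9 in the leaf fit, and ABA called 0 in guard cells of agb1, gpa1 and the double mutant, 2 in agb1 leaves and 1 in double mutant leaves, fewer members having been tested. With the replicate block ABA called 0 members in gpa1 guard cells and 0 in gpa1 leaves, where CYP71B26 and CYP71B5 had adjusted p of 0.0513 and 0.0507, though numbers did not pair those leaves. It moved no other count by over 1.5 times. The replicate block within genotype, added after the data were seen, gave 3 in WT guard cells, 2 in agb1, 2 in gpa1 and 3 in double mutant guard cells, 3 in agb1 leaves and 1 in double mutant leaves. For the block within genotype the shares of all probe sets are given above, except in double mutant leaves. For the other alternatives, and for the fits that left out 1 array, these shares are not given here. Those counts therefore have no background beside them. The cause of the shifts in counts was not tested.

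Leaving out 1 array at a time gave 10 to 11 calls for guard cells against leaves under EtOH, 9 to 11 under ABA and 2 to 4 for the difference of responses. For ABA in guard cells it gave 1 to 2 in the double mutant, 0 to 1 in gpa1, 1 to 2 in agb1 and 0 to 2 in WT. For ABA in leaves it gave 0 to 1 in the double mutant, 0 to 1 in gpa1, 0 to 2 in agb1 and 3 to 5 in WT. The double mutant against WT in leaves under EtOH gave 0 to 1, and the other mutant and genotype-by-ABA tests gave 0 throughout. No named difference changed sign under any alternative. The mean of a gene's probe sets gave no value, since no member has more than 1, and the genotype-by-ABA tests already use all arrays of their fit. The signal of dim members was not set against background.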

Other observations

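A pair of P450 probe sets outside the 23 members could not be tied to 1 gene. The probe set shared by CYP71B19 and CYP71B20 averaged 5.37 ± 0.36 in WT guard cells with ABA and 6.41 ± 0.68 with EtOH, and 8.45 ± 0.27 in WT leaves with ABA and 7.68 ± 0.48 with EtOH (SD, n = 3 arrays each). The 3 mutants had means of 5.34 to 5.70 in guard cells with ABA and 6.43 to 7.08 with EtOH, and 8.83 to 9.19 in leaves with ABA and 7.71 to 7.88 with EtOH. In all 4 genotypes the mean with ABA was thus below that with EtOH in guard cells and above it in leaves, and no test of this probe set is given. The probe set shared by CYP79C2 and AT1G58265 had group means of 3.42 to 3.91 in all 16 groups.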
